A study of Mus musculus with 10 samples.

Results

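The 49 genes described here encode factors of the complement and coagulation systems, together with the enzymes and inhibitors of fibrinolysis. They were picked by gene symbol from a list of 24 complement genes and 25 coagulation genes, and all 49 were among the 24052 genes counted in the livers. RNA from 10 whole livers was sequenced, 5 from wild-type (WT) mice and 5 from liver-specific *Ndrg3* knockout (Ndrg3 LKO) mice, and every liver gave 1 library. All of the mice had free access to food. The question of the comparison was which liver transcripts change when the *Ndrg3* gene is disrupted in hepatocytes. The mutant mice carried *Ndrg3* alleles with a floxed exon 4 and the Cre recombinase under the albumin promoter, which is active in hepatocytes, so that *Ndrg3* in other liver cells was not the target. Controls were WT littermates of a strain given as C57BL/6 in the labels and as backcrossed to C57BL/6N in the methods, and the mice were male unless otherwise mentioned. The ages given are 8 to 10 weeks in the description of the tissue collection and 10 to 12 weeks beside the metabolite data of the same livers. Neither the litter of each liver nor a batch is given, so the p-values below measure the spread between these livers only.

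Complement is a cascade of plasma proteases that marks microbes and damaged cells, draws in leukocytes through the fragments called anaphylatoxins, and ends in a pore made of the terminal components. Coagulation is a second protease cascade, which ends with thrombin cutting fibrinogen into fibrin, and fibrinolysis is the removal of that fibrin by plasmin. The liver is the main source of most of these plasma proteins, and hepatocytes secrete them. The C1q chains, properdin and the anaphylatoxin receptors are instead made largely by macrophages and other myeloid cells, factor VIII by endothelial cells, and factor D by adipocytes. In whole liver, fewer cells of a type and less RNA per cell cannot be told apart.

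The labels were checked first on *Ndrg3* itself. It had 17.8, 17.7, 15.9, 19.1 and 21.9 CPM (counts scaled to a common library size) in WT replicates 1 to 5 and 7.07, 8.05, 9.16, 7.78 and 8.25 CPM in LKO replicates 1 to 5, with library sizes adjusted by the TMM method, as for all CPM below. Every LKO liver lay below every WT liver (log2 fold change -1.20 ± 0.13, edgeR adjusted p = 3.87e-05). Log2 fold changes are of LKO over WT livers and are given ± SE. The counts cover the whole gene, not exon 4 alone. Between 20872262 and 24747870 reads were counted on genes in the WT livers (median 22022138) and between 23474693 and 30450057 in the LKO livers (median 29089210). A signal of 3 counts, taken as the floor, corresponded to between 0.0727 and 0.178 CPM, which covers counting error only.

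LKO replicate 5 stood apart from the other LKO livers. On the first principal component, which held 68.7% of the variance, the WT livers lay between -49.9 and -43, LKO replicates 1 to 4 between 51.1 and 56.6, and LKO replicate 5 at 14.1. The 20 most abundant genes took 26.2% to 28% of the counts in the WT livers, 16.3% to 17.3% in LKO replicates 1 to 4 and 26.6% in LKO replicate 5. Its *Ndrg3* level, 8.25 CPM, was within the range of the other LKO livers. Results are therefore given for all 10 livers and for the 9 livers without LKO replicate 5. The study's methods give 5 WT and 5 Ndrg3 LKO mice. Its legends for the metabolite and gene results of these livers give 5 WT and 4 LKO and do not say which LKO liver is missing.

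Complement and coagulation transcripts were mostly lower in Ndrg3 LKO livers. Together the 49 genes took 3.26% to 4.18% of all counts in the WT livers and 2.06% to 3.1% in the LKO livers, and the 2 ranges did not overlap. A gene was tested when it reached 1 CPM in at least 5 livers, which 44 of the 49 did; the other 5 were *Cfd*, *C5ar1*, *Plat*, *Plau* and *Plaur*. Of these 44, 33 were lower and 6 higher in LKO livers at an adjusted p under 0.05 in edgeR's quasi-likelihood test, and 5 did not pass. Over all 11208 genes tested, 23% were lower and 25.6% higher. The median log2 fold change was -1.04 over the 44 genes and 0.0314 over all genes tested. Among the lower genes, 23 had a log2 fold change under -1, which 9.11% of all genes tested had with the same adjusted p. For 26 of the 44 genes every LKO liver lay below every WT liver, as for 15.9% of all genes tested, and for 2 genes every LKO liver lay above, as for 15.6% of all.

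Leaving out LKO replicate 5 gave 35 lower and 7 higher genes of 45 tested, the added one being *C5ar1*, which passed the filter through the LKO livers alone, with a median of -1.25, against a background of 27.2% lower and 28.4% higher genes. The genes separated by their usual cell of origin. The 37 genes usually made by hepatocytes were all tested, and 33 of them were lower and none higher (median -1.17). They comprised 14 of 17 complement genes and 19 of 20 coagulation genes. The 6 genes usually made by macrophages gave 5 that were tested, all 5 higher (median 1.31). One of these 5, *C3ar1*, passed the filter on low counts through the LKO livers alone, so that it had to differ. Of the 6 genes made mainly by other cells, *F8* was higher, *F3* did not pass, and *Cfd*, *Plat*, *Plau* and *Plaur* were not tested.

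**Figure D1:**
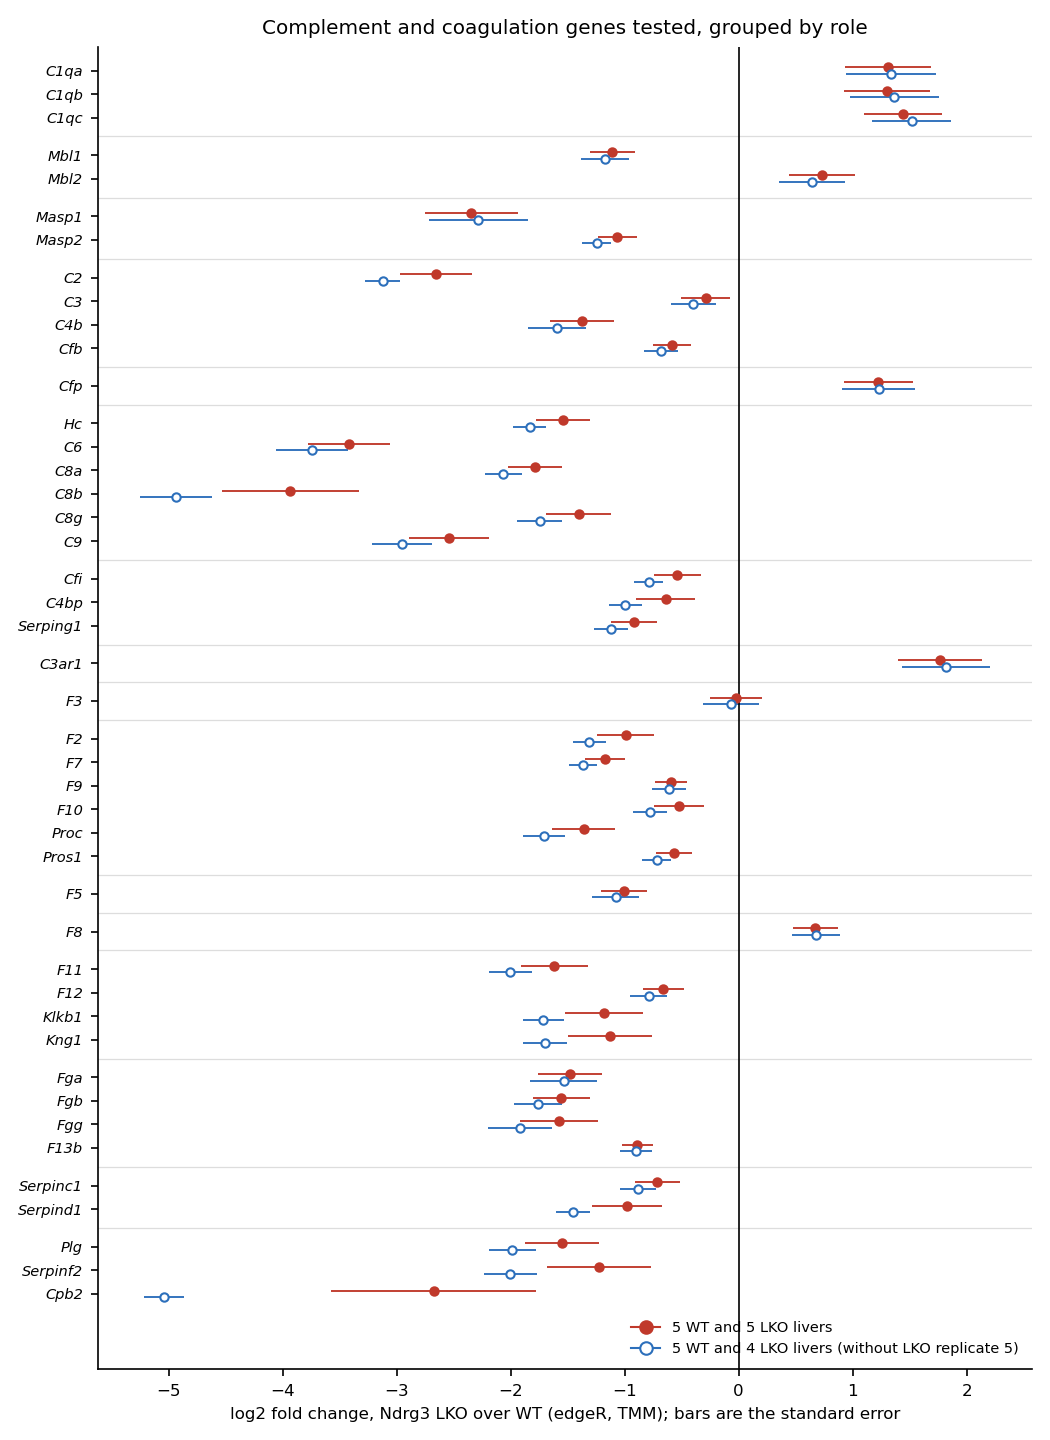
Log2 fold change of each tested gene in Ndrg3 LKO over WT livers (x axis) with its standard error from edgeR, grouped by role (y axis). Filled points are all 10 livers and open points the 9 livers without LKO replicate 5. C8b (-3.93) and C6 (-3.42) lay farthest left in all 10 livers, Cpb2 (-5.04) in the 9 livers, and the C1q genes, Cfp, C3ar1, Mbl2 and F8 to the right of 0.

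Levels of different genes were compared per kb of exon, as CPM per kb. In WT livers *Fgb* stood first with 2990 ± 698 CPM per kb (SD, n = 5), followed by *Fgg* with 2150 ± 515. The next 4 genes, *C3* (1200 ± 155), *Serpinc1* (1190 ± 177), *Fga* (1180 ± 287) and *Plg* (1090 ± 114), lay within 1 SD of each other. With the longest transcript as the length *Kng1* moved from 877 to 1230 CPM per kb in WT livers. In LKO livers *Fgb* (1020 ± 325) and *C3* (981 ± 269) stood first and second, within 1 SD of each other. *Mbl2* moved from rank 9 in WT livers (514 ± 87.5) to rank 3 in LKO livers (853 ± 359), with a wide spread. At the other end, *C8b* moved from rank 24 to rank 37 and *C6* from rank 27 to rank 39 of the 49 genes.

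The 6 terminal pathway genes of the list were all lower; their products are parts of the membrane attack complex. The genes, *Hc* (which encodes C5), *C6*, *C8a*, *C8b*, *C8g* and *C9*, passed the test, and in each of them every LKO liver lay below every WT liver. Over all genes tested 23% were lower, and 15.9% had every LKO liver below every WT liver. Their median log2 fold change was -2.16 in all 10 livers and -2.51 without LKO replicate 5. The largest fall was that of *C8b*, the C8 beta chain, which had 579, 534, 410.1, 525 and 629 CPM in WT replicates 1 to 5 and 20.9, 10.5, 12.1, 27.2 and 105 CPM in LKO replicates 1 to 5. LKO replicate 5 was the highest of the LKO livers and still lay below the lowest WT liver. The difference was 15.3-fold (log2 fold change -3.93 ± 0.60, edgeR adjusted p = 0.000361) and 30.6-fold without LKO replicate 5 (-4.93 ± 0.31). *C6*, which joins C5b to start the pore, ran from 311 to 457 CPM in WT livers and from 13 to 61.6 CPM in LKO livers, a 10.7-fold difference (-3.42 ± 0.36). *C9*, whose copies form the ring of the pore, was 5.82-fold lower (-2.54 ± 0.35). *Hc*, *C8a* and *C8g* had smaller differences, of 2.91-, 3.45- and 2.65-fold. *C7*, the remaining component of the complex, is not among the 49 genes and was too rare to be tested, with 0 to 0.617 CPM in WT livers and 0 to 0.618 CPM in LKO livers.

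*C8a* and *C8b* lie next to each other on chromosome 4, tail to tail, at chr4:104488284-104549003 on the minus strand and chr4:104438922-104477153 on the plus strand (mm9), with 11.13 kb between them. Their levels in WT livers were alike, 229 ± 24.4 and 210 ± 31.9 CPM per kb (SD, n = 5), while in LKO livers they were 66.4 ± 26.2 and 13.8 ± 15.6. Their starts are at the outer ends, and the 250 bases before each start are shown because the neighbours were alike in WT livers and lay apart in LKO livers. Upstream sequences here are from RefSeq on GRCm38.p6, a different build from the mm9 of the counts, and are written 5′ to 3′ along the gene. Capitals mark matches on either strand to GTTAAT, a core of sites for the hepatocyte factor HNF1, or to TTGCNNAA, a pattern of the C/EBP factors, and no 2 matches overlapped. The *C8b* window is chr4:104766067-104766316 (plus strand) and the *C8a* window is chr4:104876399-104876648 (minus strand).
C8b: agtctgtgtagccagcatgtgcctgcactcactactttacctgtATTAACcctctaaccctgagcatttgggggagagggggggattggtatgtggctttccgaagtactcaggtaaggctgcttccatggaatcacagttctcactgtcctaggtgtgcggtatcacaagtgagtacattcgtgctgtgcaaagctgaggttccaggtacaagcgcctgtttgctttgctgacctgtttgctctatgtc
C8a: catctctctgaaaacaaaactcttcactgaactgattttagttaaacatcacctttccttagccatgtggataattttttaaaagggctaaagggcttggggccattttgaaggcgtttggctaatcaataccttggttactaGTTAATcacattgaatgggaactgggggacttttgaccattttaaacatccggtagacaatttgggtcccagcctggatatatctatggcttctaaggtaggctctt
Each window held 1 match to GTTAAT, between 206 and 201 bases before the start in *C8b* and between 107 and 102 bases before it in *C8a*, and none to TTGCNNAA. GTTAAT was found in 6.43% of 32851 promoter windows of the same length and in the windows of 8 of the 37 genes of the list that had a sequence (21.6%). TTGCNNAA was found in 9.56% of all windows and also in 8 of the 37. A gene of the list was counted when any of its windows matched, whereas the background counts single windows. The shares are therefore not like for like and no excess can be read from them. A match describes letters in a window and is not a shown binding site.

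The components of the C3 convertases, the enzymes that cut C3, were unequally lower. *C2*, the protease of the classical and lectin convertase, had 193, 227, 165, 179 and 219 CPM in WT replicates 1 to 5 and 26.4, 19.2, 22.2, 23.3 and 65.3 CPM in LKO replicates 1 to 5. LKO replicate 5 was again the highest LKO liver, and the groups did not overlap (6.3-fold, log2 fold change -2.65 ± 0.32, edgeR adjusted p = 7.91e-05; -3.12 ± 0.15 without LKO replicate 5). *C4b*, the other component of that enzyme, fell 2.59-fold (-1.37 ± 0.28), although its reads may be shared with the near-identical *C4a* gene. *Cfb*, the protease of the alternative convertase, fell 1.5-fold (-0.58 ± 0.17). *Cfb* lies 0.085 kb from *C2* on chromosome 17, and both overlap *Gm20547* on the same strand, so their reads may be shared. Without TMM scaling *Cfb* was at -0.08 and did not pass.

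*C3*, the substrate of these enzymes and the most abundant complement transcript, did not pass the test. It had 6921, 6088, 5163, 6972 and 5632 CPM in WT replicates 1 to 5 and 4424, 3999, 6684, 3716 and 6353 CPM in LKO replicates 1 to 5. LKO replicates 3 and 5 were within the WT range, and the other 3 LKO livers lay below it (log2 fold change -0.29 ± 0.22, edgeR adjusted p = 0.285; -0.40 ± 0.20 and 0.105 without LKO replicate 5). Its sign turned with scaling, to 0.21 with library sizes alone and 0.48 after quantile normalization. Its upstream window, chr17:57228137-57228386 on the minus strand (GRCm38.p6), is shown as that of the abundant gene that did not pass, with the same marking.
C3: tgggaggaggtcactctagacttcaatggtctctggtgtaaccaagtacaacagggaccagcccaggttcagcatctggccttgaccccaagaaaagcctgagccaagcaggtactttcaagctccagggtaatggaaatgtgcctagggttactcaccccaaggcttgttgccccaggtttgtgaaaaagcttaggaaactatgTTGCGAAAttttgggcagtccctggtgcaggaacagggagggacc
It held 1 match to TTGCNNAA, between 45 and 38 bases before the start, and none to GTTAAT.

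In the lectin pathway, which recognises sugars on microbes, 1 of the 2 mannose-binding lectins was lower and the other did not pass. *Mbl1* had 259, 321, 288, 227 and 360.3 CPM in WT replicates 1 to 5 and 169, 83, 125, 144 and 155 CPM in LKO replicates 1 to 5, and the groups did not overlap (2.15-fold lower, log2 fold change -1.11 ± 0.20, edgeR adjusted p = 0.00103). *Mbl2* had 511, 555, 658, 442 and 666 CPM in WT livers and 1179, 476, 558, 1353 and 1133 CPM in LKO livers. LKO replicates 1, 4 and 5 were above every WT liver and LKO replicates 2 and 3 within the WT range, and *Mbl2* did not pass (0.73 ± 0.29, edgeR adjusted p = 0.0515). It passed as higher in 5 of 17 other settings, among them library sizes alone (1.23) and quantile normalization (1.02). It was the only gene of the 37 usually made by hepatocytes with a log2 fold change above 0 in the fit of all 10 livers.

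The proteases that travel with these lectins were both lower, beside 23% of all genes tested. *Masp1* was a rare transcript with 33.4, 18.7, 14.2, 53 and 20.8 CPM in WT replicates 1 to 5 and 3.05, 8.6, 8.06, 3.45 and 4.34 CPM in LKO replicates 1 to 5. WT livers varied widely, yet no LKO liver reached the lowest of them (5.08-fold lower, log2 fold change -2.34 ± 0.41, edgeR adjusted p = 0.000782). *Masp2*, which cuts C4 and C2, fell 2.09-fold (-1.06 ± 0.17), with the caveat that it overlaps *Tardbp* on the opposite strand and the strand setting of the counting is not given in the sources used here.

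**Figure D2:**
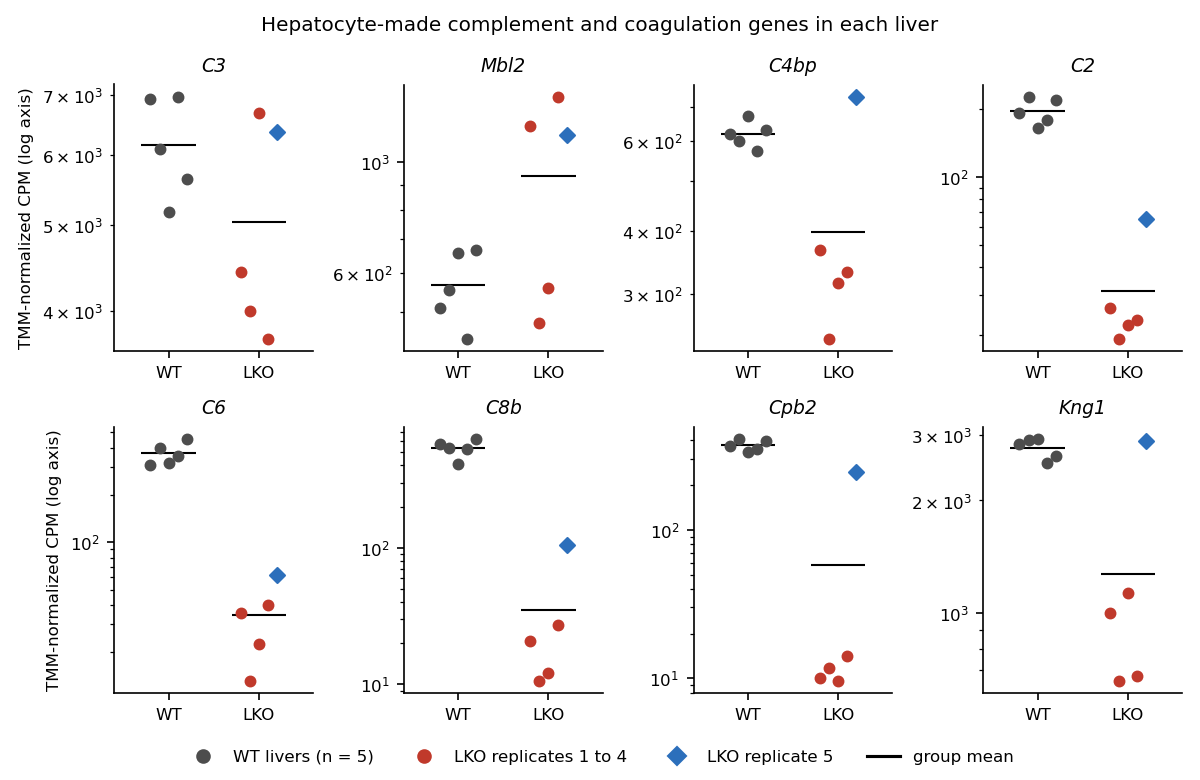
TMM-normalized CPM (log axis) of 8 hepatocyte-made genes in each liver. Circles are WT livers and LKO replicates 1 to 4, diamonds are LKO replicate 5, and lines are group means. C3 and Mbl2 overlap between the groups, C2, C6 and C8b do not, and LKO replicate 5 lies within or above the WT range in C4bp and Kng1.

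The macrophage-made complement genes went the other way. *C1qc*, 1 of the 3 chains of C1q, which binds antibody and dying cells to start the classical pathway, had 14.7, 38.8, 16.7, 18 and 23.4 CPM in WT replicates 1 to 5 and 91.9, 29.4, 84.7, 51.8 and 44.8 CPM in LKO replicates 1 to 5. The groups overlapped, as LKO replicate 2 lay within the WT range and WT replicate 2 was above it (2.71-fold higher, log2 fold change 1.44 ± 0.34, edgeR adjusted p = 0.00466). *C1qa* and *C1qb*, its neighbours within 3.616 kb on chromosome 4, were 2.47- and 2.46-fold higher (1.31 ± 0.38 and 1.30 ± 0.38). *Cfp*, properdin, which stabilises the alternative convertase, had 9.32, 20.2, 10.6, 10.3 and 13.6 CPM in WT livers and 45.5, 13.6, 36.3, 25.8 and 28.4 CPM in LKO livers (2.33-fold higher, 1.22 ± 0.30, edgeR adjusted p = 0.00609). In *Cfp* too, LKO replicate 2 was within the WT range. Without LKO replicate 5 these 4 genes had log2 fold changes between 1.23 and 1.52 and passed.

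Receptors for the anaphylatoxins C3a and C5a were rare transcripts. *C3ar1* had 0.898, 0.879, 0.557, 0.919 and 0.298 CPM in WT replicates 1 to 5 and 3.1, 1.11, 3.63, 2.39 and 1.98 CPM in LKO replicates 1 to 5, with every LKO liver above every WT liver (3.4-fold, 1.76 ± 0.37, edgeR adjusted p = 0.00233). *C5ar1* had 0.337, 0.733, 0.501, 0.551 and 0.655 CPM in WT livers and 3.1, 0.969, 3.32, 1.79 and 0.707 CPM in LKO livers and was tested only without LKO replicate 5, where it was 4.06-fold higher (2.02 ± 0.38, edgeR adjusted p = 0.000925). Both lay near 1 CPM, and *C5ar1*, like *C3ar1*, passed the filter through the LKO livers alone.

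Markers of Kupffer cells, the macrophages of the liver, and of other macrophages moved with these genes. Of 14 such markers, 10 were tested and all 10 were higher, also without LKO replicate 5, beside 25.6% of all genes tested (28.4% without that liver). *Gpnmb*, which was tested only without that liver, passed the filter through the LKO livers alone and is not counted. Their summed level was 91.2, 225, 104, 120 and 150 CPM in WT replicates 1 to 5 and 637, 207, 632, 338 and 265 CPM in LKO replicates 1 to 5. The 3 C1q genes summed to 42.8, 135, 57.6, 55.7 and 90.7 CPM in the same WT livers and to 307, 88.3, 250, 167 and 156 CPM in the LKO livers. WT replicate 2 was the highest WT liver and LKO replicate 2 the lowest LKO liver on both sums. *Clec4f*, a Kupffer cell lectin and the most abundant marker, was higher by 1.11 on the log2 scale (SE 0.33), and no marker of the list was at 0 in every liver. The part of the macrophage markers in the C1q, *Cfp* and receptor results was not tested.

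**Figure D3:**
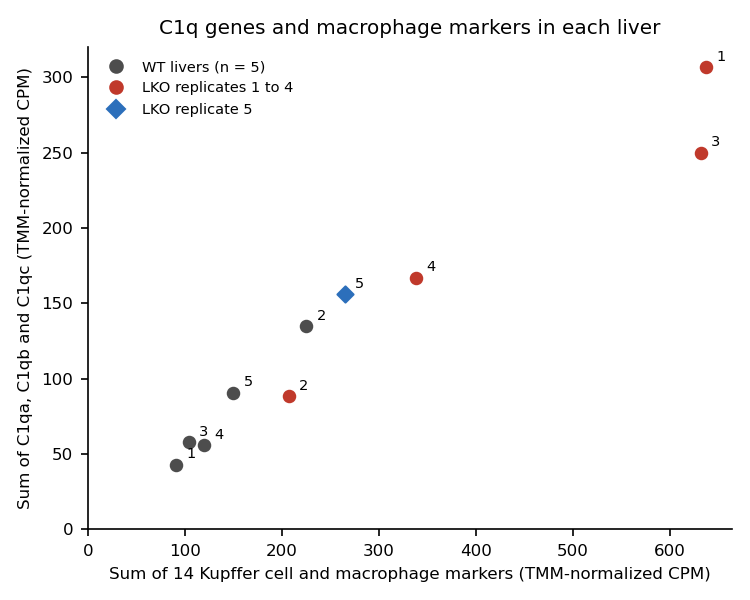
Summed TMM-normalized CPM of C1qa, C1qb and C1qc (y axis) against that of 14 Kupffer cell and macrophage markers (x axis), 1 point per liver with its replicate number. LKO replicates 1 and 3 lie farthest up and right, at 307 and 250 CPM of C1q, and LKO replicate 2, at 88.3 CPM, lies among the WT livers.

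Of the soluble inhibitors that restrain complement in plasma, *Serping1*, the C1 inhibitor, had the largest fall. It had 906, 982, 747, 847 and 831 CPM in WT replicates 1 to 5 and 455, 317, 404, 425 and 688 CPM in LKO replicates 1 to 5, without overlap (1.89-fold, log2 fold change -0.91 ± 0.20, edgeR adjusted p = 0.00309). *Cfi*, factor I, which cuts C3b and C4b, ran from 668 to 764 CPM in WT livers, from 368 to 475 CPM in LKO replicates 1 to 4, and to 782 CPM in LKO replicate 5, above every WT liver. It passed narrowly in all 10 livers (-0.54 ± 0.21, edgeR adjusted p = 0.048), more clearly without LKO replicate 5 (-0.79 ± 0.13, 0.000306), and not when any 1 of the other 9 livers was left out (adjusted p 0.0617 to 0.112). *C4bp*, the C4b-binding protein, had the same shape, with 574 to 672 CPM in WT livers, 244 to 366 CPM in LKO replicates 1 to 4 and 735 CPM in LKO replicate 5. It did not pass in all 10 livers (-0.64 ± 0.26, edgeR adjusted p = 0.0587) and was lower without LKO replicate 5 (-0.99 ± 0.14, 0.000138).

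*Cfd*, factor D, the protease that activates factor B, was not tested. It had 0.505, 0.488, 1, 7.67 and 0.298 CPM in WT replicates 1 to 5 and 10.7, 21.9, 0.386, 0.057 and 0 CPM in LKO replicates 1 to 5, the last being 0 counts. The 3 highest livers, LKO replicates 2 and 1 and WT replicate 4, came from both groups. The adipocyte gene *Adipoq* was highest in the same 3 livers, with 5.02, 1.81 and 1.56 CPM, and was at most 0.223 CPM in the other 7. *Plin1*, another adipocyte gene, had 1.65, 0.402 and 0.459 CPM in those 3 livers and at most 0.0772 CPM elsewhere. *Lipe* and *Adrb3*, the 2 more abundant of the 5 adipocyte markers, did not follow *Cfd*. *Lipe* was lower in LKO livers and highest in WT replicate 5 (20.8 CPM), with 8.45 and 7.56 CPM in LKO replicates 1 and 2. *Adrb3* was highest in WT replicates 1 (3.7 CPM) and 4 (3.31 CPM) and LKO replicate 4 (2.79 CPM) and did not pass. No marker of this list was at 0 in every liver, and the part of adipocyte RNA in the *Cfd* values was not tested.

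Fibrinogen, the protein that thrombin turns into the clot, is built from 3 chains, and all 3 transcripts were lower by similar amounts. *Fga* had 3883, 4367, 2308, 3851 and 2869 CPM in WT replicates 1 to 5 and 1043, 930.2, 2034, 798 and 1403 CPM in LKO replicates 1 to 5 (2.78-fold, log2 fold change -1.48 ± 0.28, edgeR adjusted p = 0.00138). *Fgb* had 5086, 6718, 3596, 4443 and 4771 CPM in WT livers and 1374, 1146, 1828, 1506 and 2522 CPM in LKO livers (2.94-fold, -1.55 ± 0.25, edgeR adjusted p = 0.000489). *Fgg* had 3777, 5871, 3968, 3172 and 4324 CPM in WT livers and 1446, 648, 1542, 867 and 2594 CPM in LKO livers (2.97-fold, -1.57 ± 0.34, edgeR adjusted p = 0.00301). In each chain every LKO liver lay below every WT liver, as for 15.9% of all genes tested, of which 23% were lower. LKO replicate 3 was the highest LKO liver for *Fga*, and LKO replicate 5 for *Fgb* and *Fgg*. Without LKO replicate 5 the log2 fold changes were -1.54 ± 0.29, -1.76 ± 0.21 and -1.92 ± 0.28. After quantile normalization *Fga* was at -0.74 and did not pass (limma adjusted p = 0.0612). *F13b*, the carrier subunit of factor XIII, which cross-links fibrin, fell 1.85-fold (-0.89 ± 0.14), with LKO replicate 5 within the range of the other LKO livers; with library sizes alone it was at -0.36 and did not pass.

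**Figure D4:**
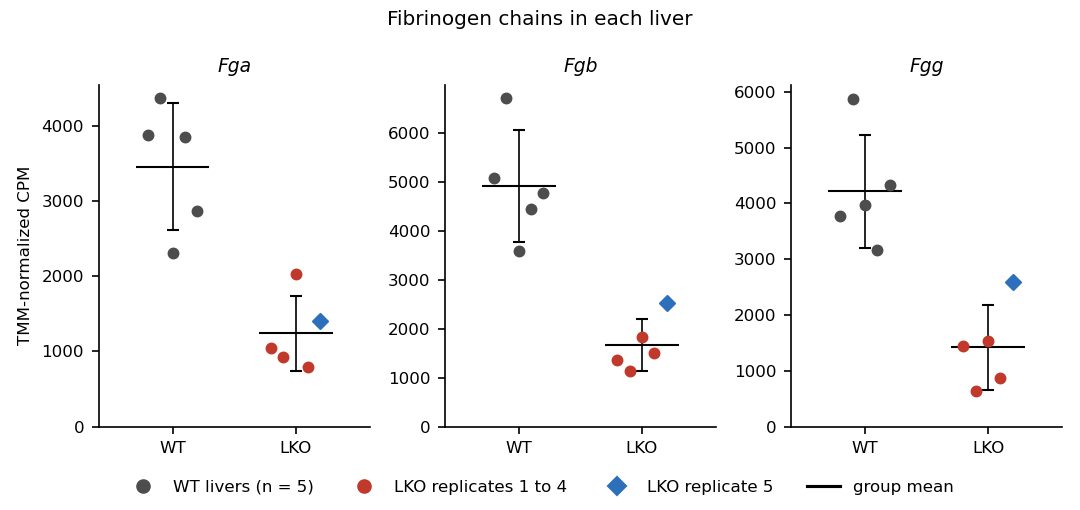
TMM-normalized CPM of the 3 fibrinogen genes in each liver (y axes from 0), with the group mean as a line and the SD as a bar (n = 5). For each chain all LKO livers, including LKO replicate 5 (diamond), lie below the lowest WT liver.

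The fibrinogen genes form a cluster on chromosome 3 of mm9, with *Fgg* at chr3:82811781-82818975, *Fga* at chr3:82830075-82838036 and *Fgb* at chr3:82846169-82853725, separated by 11.1 and 8.132 kb. *Fgb* is on the minus strand and the others are on the plus strand. Their upstream windows are shown because the 3 genes moved together. On GRCm38.p6 they are chr3:83007474-83007723 for *Fgg*, chr3:83025903-83026152 for *Fga* and chr3:83049864-83050113 for *Fgb*, with matches marked in capitals as for the C8 genes.
Fgg: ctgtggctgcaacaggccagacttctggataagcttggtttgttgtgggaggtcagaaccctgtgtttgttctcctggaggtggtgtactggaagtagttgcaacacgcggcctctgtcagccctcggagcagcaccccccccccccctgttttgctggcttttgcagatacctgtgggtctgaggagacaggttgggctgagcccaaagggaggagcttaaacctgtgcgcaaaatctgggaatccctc
Fga: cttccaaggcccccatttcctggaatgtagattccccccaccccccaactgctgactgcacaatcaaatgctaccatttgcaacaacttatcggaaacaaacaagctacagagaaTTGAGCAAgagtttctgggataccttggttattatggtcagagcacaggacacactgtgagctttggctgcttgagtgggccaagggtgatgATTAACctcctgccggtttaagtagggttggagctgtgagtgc
Fgb: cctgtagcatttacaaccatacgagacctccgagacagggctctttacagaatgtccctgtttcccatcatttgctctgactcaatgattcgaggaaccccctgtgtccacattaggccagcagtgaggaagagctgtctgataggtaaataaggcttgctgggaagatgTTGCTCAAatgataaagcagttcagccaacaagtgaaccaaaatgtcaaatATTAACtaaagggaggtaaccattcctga
*Fga* and *Fgb* each held 1 match to GTTAAT, 43 to 38 and 29 to 24 bases before the start, and 1 to TTGCNNAA, 135 to 128 and 80 to 73 bases before it. *Fgg* held neither.

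Among the fibrinolysis genes, *Cpb2* differed most between livers. It encodes a carboxypeptidase that protects fibrin from plasmin. It had 367, 411, 335, 349 and 394 CPM in WT replicates 1 to 5 and 10, 11.8, 9.55, 14.2 and 246 CPM in LKO replicates 1 to 5. LKO replicates 1 to 4 averaged 3.07% of the WT mean, and LKO replicate 5 was at 66.3% of it, below every WT liver. The fall was 6.38-fold in all 10 livers (-2.67 ± 0.90, edgeR adjusted p = 0.0277) and 32.8-fold without LKO replicate 5 (-5.04 ± 0.17, 2.97e-08). It did not pass when LKO replicate 1 (adjusted p 0.054) or 4 (0.059) was left out instead. *Plg*, plasminogen, the precursor of plasmin, fell 2.93-fold from 2524 to 3403 CPM in WT livers to 524 to 2067 CPM in LKO livers (-1.55 ± 0.33). *Serpinf2*, the main inhibitor of plasmin, had 116 to 255 CPM in LKO replicates 1 to 4 and 868 CPM in LKO replicate 5, which lay within the WT range of 672 to 1024 CPM. It passed in all 10 livers (-1.23 ± 0.46, edgeR adjusted p = 0.0422) and without LKO replicate 5 (-2.00 ± 0.23, 2.81e-05), and not when any 1 of the other 9 livers was left out (0.0526 to 0.0945).

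The activators that turn plasminogen into plasmin, and the receptor of one of them, were too rare to be tested. *Plat*, the tissue activator, had 0.337, 0.244, 0.278, 0.0919 and 0 CPM in WT replicates 1 to 5 and 0.719, 0.509, 0.669, 0.513 and 0.848 CPM in LKO replicates 1 to 5. *Plau*, the urokinase activator, had 0.281, 0.244, 0.668, 0.505 and 0 CPM in WT livers and 1.06, 0.703, 0.669, 1.34 and 4.53 CPM in LKO livers. *Plaur*, the urokinase receptor, had 0.225, 0.391, 0.557, 0.413 and 0.417 CPM in WT livers and 0.747, 0.606, 0.875, 0.883 and 1.7 CPM in LKO livers. In all 3 every LKO liver lay above every WT liver, as for 15.6% of all genes tested, and LKO replicate 5 was the highest. WT livers had only 0 to 6 counts of *Plat*, 0 to 12 of *Plau* and 4 to 10 of *Plaur*. With no filter on low counts the 3 genes passed, with log2 fold changes of 1.7, 2.18 and 1.19 (edgeR adjusted p 0.0205, 0.0221 and 0.0219), on levels near the floor.

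The vitamin K-dependent factors carry carboxylated residues that bind calcium and membranes. Of 6 genes, 5 were lower, beside 23% of all genes tested, and *F10* did not pass. *Proc*, protein C, an anticoagulant protease, had the largest fall of the 6, with 911, 732, 698, 745 and 773 CPM in WT replicates 1 to 5 and 265, 186, 190, 312 and 551 CPM in LKO replicates 1 to 5 (2.56-fold, log2 fold change -1.36 ± 0.28, edgeR adjusted p = 0.00208; -1.71 ± 0.18 without LKO replicate 5). The groups did not overlap, and LKO replicate 5 was the highest LKO liver. *F7*, which starts coagulation with tissue factor, fell 2.25-fold (-1.17 ± 0.17), and *F9*, the protease of the intrinsic tenase, fell 1.51-fold (-0.60 ± 0.14), again without overlap. *F2*, prothrombin, had 790 to 1007 CPM in LKO replicates 1 to 4 and 2045 CPM in LKO replicate 5, inside the WT range of 1990 to 2452 CPM (-0.99 ± 0.25, edgeR adjusted p = 0.00659; -1.31 ± 0.14 without it). *F10*, which makes thrombin from prothrombin, was at -0.52 ± 0.22 in all 10 livers and was lower without LKO replicate 5 (-0.78 ± 0.15, edgeR adjusted p = 0.00096). *Pros1*, protein S, the cofactor of protein C, fell 1.48-fold (-0.57 ± 0.15). *F7* and *F10* lie 1.498 kb apart on chromosome 8. With library sizes alone *F9* (-0.06), *F10* (-0.05) and *Pros1* (-0.07) did not pass, nor did *F2* after quantile normalization (-0.40).

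The cofactors and the initiator of coagulation did not move alike. *F5*, factor V, had 494, 322, 349.8, 506 and 356 CPM in WT replicates 1 to 5 and 136, 230, 233, 174 and 234 CPM in LKO replicates 1 to 5, without overlap (2.01-fold lower, log2 fold change -1.01 ± 0.20, edgeR adjusted p = 0.00172). With library sizes alone it was at -0.49 and did not pass. *F8*, factor VIII, its endothelial counterpart, had 3.59, 2.44, 4.73, 4.46 and 3.39 CPM in WT livers and 6.99, 6.42, 5.53, 5.1 and 5.66 CPM in LKO livers, with every LKO liver higher (1.6-fold, 0.67 ± 0.20, edgeR adjusted p = 0.0142). Of 10 endothelial markers 9 were also higher (8 without LKO replicate 5), beside 25.6% of all genes tested (28.4%), with summed levels of 90.4 to 119 CPM in WT livers and 185 to 225 CPM in LKO livers, of which *Clec4g* was the most abundant and none was at 0 in every liver. Their part in the *F8* result was not tested, and *F8* overlaps *Fundc2* on the opposite strand. *F3*, tissue factor, had 2.3, 3.91, 4.12, 2.39 and 4.76 CPM in WT livers and 3.16, 3.81, 2.88, 3.59 and 3.77 CPM in LKO livers, which overlapped, and did not pass (-0.02 ± 0.23, edgeR adjusted p = 0.947); its sign turned in 8 of 17 other settings.

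All 4 genes of the contact and intrinsic pathway were lower, beside 23% of all genes tested. *F11*, factor XI, had 123, 94.4, 99.1, 139 and 96.3 CPM in WT replicates 1 to 5 and 30.2, 24.5, 35.4, 21.1 and 69.3 CPM in LKO replicates 1 to 5, without overlap (3.07-fold, log2 fold change -1.62 ± 0.29, edgeR adjusted p = 0.00102; -2.00 ± 0.19 without LKO replicate 5). *F12*, factor XII, fell 1.58-fold (-0.66 ± 0.18), but with library sizes alone it was at -0.16 and did not pass. *Klkb1*, prekallikrein, is the neighbour of *F11* at 7.41 kb on chromosome 8 and overlaps *Cyp4v3* on the same strand, so its reads may be shared. It had 30 to 51.8 CPM in LKO replicates 1 to 4 and 127 CPM in LKO replicate 5, within the WT range of 119.5 to 144 CPM (-1.19 ± 0.34; -1.71 ± 0.18 without it). *Kng1*, kininogen, the source of bradykinin, had 654 to 1127 CPM in LKO replicates 1 to 4 and 2883 CPM in LKO replicate 5, again within the WT range of 2526 to 2932 CPM (-1.13 ± 0.37, edgeR adjusted p = 0.0242; -1.70 ± 0.19 without it). *Kng1* did not pass when LKO replicate 1 (adjusted p 0.0587) or 4 (0.0557) was left out, and its reads may be shared with the similar *Kng2*.

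Both thrombin inhibitors were lower, beside 23% of all genes tested. *Serpind1*, heparin cofactor II, had 543, 465, 419.7, 492 and 482 CPM in WT replicates 1 to 5 and 209, 159.5, 194, 146 and 509 CPM in LKO replicates 1 to 5. LKO replicate 5 was within the WT range and the other LKO livers far below it (1.97-fold, log2 fold change -0.98 ± 0.31, edgeR adjusted p = 0.0209; 2.73-fold and -1.45 ± 0.15 without LKO replicate 5). Without LKO replicate 1 its adjusted p was 0.0501. *Serpinc1*, antithrombin, fell 1.64-fold from 2309 to 3239 CPM in WT livers to 1214 to 2205 CPM in LKO livers (-0.71 ± 0.20), without overlap. Its sign turned after quantile normalization (0.06).

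LKO replicate 5 retained more of these transcripts than the other LKO livers. In 30 of the 44 genes tested (68.2%) it lay above all of LKO replicates 1 to 4, and in none below all of them. Over all 11208 genes tested it lay above all of them in 31.8%, and below all of them in 3393 genes. Among the 35 genes that were lower without it, it lay above the other LKO livers in 30 (85.7%), as in 65.4% of the 3108 such genes overall. Against the WT livers, 26 of these 35 (74.3%) were below the WT range, 7 (20%) within it and 2, *Cfi* and *C4bp*, above it. Of all 3108 genes lower without LKO replicate 5, 65.9% were below the WT range and 27.4% within it. The 7 within the range were *F2*, *F10*, *Pros1*, *Klkb1*, *Kng1*, *Serpind1* and *Serpinf2*. *Masp1* (15.5% of the WT mean), *C6* (16.8%), *C8b* (19.6%), *C2* (33.2%) and *C9* (33.8%) stayed low in it. Of 10 hepatocyte markers 7 were lower in LKO livers (median -1.27), beside 23% of all genes tested. Their summed level ran from 125000 to 166000 CPM in WT livers to 36500 to 45000 CPM in LKO replicates 1 to 4 and 139000 CPM in LKO replicate 5. *Alb*, albumin, was the most abundant of them, with 107800 CPM in LKO replicate 5 and between 20930 and 26340 CPM in the other LKO livers. Without *Alb* the other 9 markers summed to 41400 to 50400 CPM in WT livers, 14000 to 19500 CPM in LKO replicates 1 to 4 and 31400 CPM in LKO replicate 5, below every WT liver. *Cyp2e1*, a cytochrome P450, was the most abundant of these 9. It stayed low in LKO replicate 5, with 1381 CPM against 12230 to 14300 CPM in WT livers. *Apob*, *Hnf4a* and *Slc10a1* in LKO replicate 5 also lay below the WT range, while *Ttr*, *Tat*, *Pck1*, *Cps1* and *Asgr1* lay within it. The part of the hepatocyte markers in the difference between the LKO livers was not tested.

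**Figure D5:**
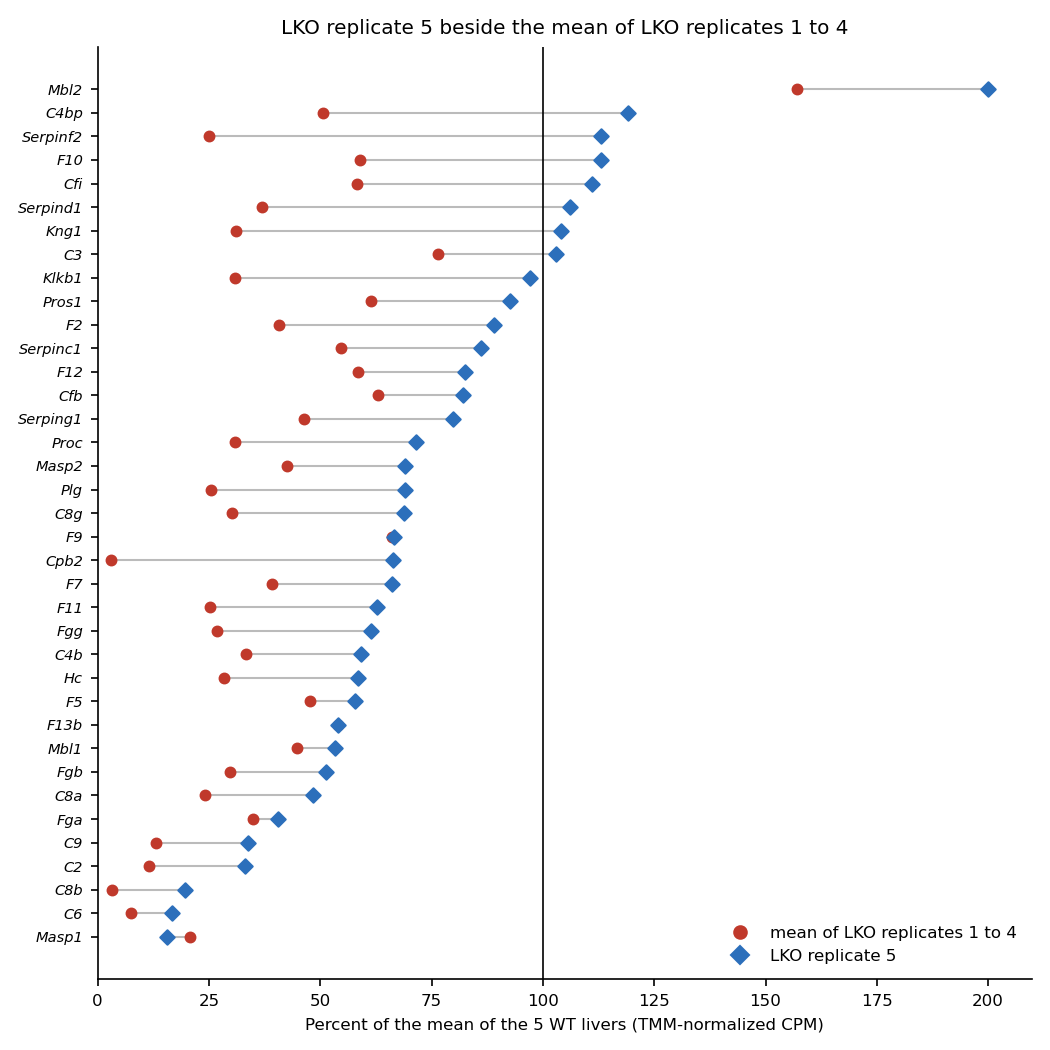
Level of the 37 hepatocyte-made genes as percent of the mean of the 5 WT livers (x axis), for the mean of LKO replicates 1 to 4 (circles) and for LKO replicate 5 (diamonds), ordered by the latter. Cpb2 runs from 3.07% to 66.3%, Serpinf2 from 25.1% to 113%, and Masp1, C6 and C8b stay under 20% in LKO replicate 5.

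Other genes of the same systems were taken from lists beyond the 49, and no test compared them with the 49. Over all genes tested 25.6% were higher and 23% lower. Of 28 further complement genes 19 were tested, of which 6 were higher and 8 lower (median -0.301), and without LKO replicate 5 the same 19 gave 6 higher and 10 lower. *C5ar2*, tested only without that liver, passed the filter through the LKO livers alone and is not counted. The most abundant were *Vtn*, vitronectin, which did not pass (-0.30 ± 0.21) and was lower without LKO replicate 5 (-0.49 ± 0.17, edgeR adjusted p = 0.0263), and *Clu*, clusterin, which fell (-0.84 ± 0.21). *C1s1* (-2.08 ± 0.19) and *C1ra* (-1.32 ± 0.14), chosen after their values were seen, are the proteases of the C1 complex, and both fell while the C1q chains rose. *C1ra* overlaps *C1rb* on the same strand, so its reads may be shared. Among the higher genes were *Vsig4* (1.32 ± 0.36) and *Itgb2* (1.65 ± 0.35), also chosen after their values were seen, which are receptors for C3 fragments on macrophages and other leukocytes.

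Of 26 further coagulation and fibrinolysis genes 16 were tested, of which 4 were higher and 6 lower (median 0.00214), and without LKO replicate 5 it was 5 higher and 7 lower. The share of these 16 that was higher, 25%, was near that of all genes. *Pzp*, a broad protease inhibitor (-1.08 ± 0.32), *Hrg*, histidine-rich glycoprotein (-2.06 ± 0.26), and *Serpina10*, the protein Z-dependent inhibitor (-0.69 ± 0.21), fell, and *Kng2* (-0.36 ± 0.20) did not pass but was lower without LKO replicate 5 (-0.58 ± 0.14, edgeR adjusted p = 0.0037). *Proz*, protein Z, another vitamin K-dependent protein, fell 2.69-fold (-1.43 ± 0.25) and was named after its values were seen. *Pzp* in LKO replicate 5 was at 3763 CPM, within the WT range of 3476 to 4064 CPM, and at 1175 to 1363 CPM in the other LKO livers. The 4 higher genes were *Thbd*, thrombomodulin (2.25 ± 0.32), *Tfpi*, the tissue factor pathway inhibitor (1.21 ± 0.23), *Anxa2* (1.56 ± 0.33) and *Plgrkt*, a plasminogen receptor (1.95 ± 0.29), named after their values were seen. *Thbd* and *Tfpi* are known from endothelial cells.

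The machinery that carboxylates and exports the vitamin K-dependent factors and factors V and VIII was counted for 7 genes, of which 2 were higher, 1 was lower and 4 did not pass, beside 25.6% higher and 23% lower over all genes tested. Without LKO replicate 5, 2 were higher, 3 lower and 2 did not pass. *Mcfd2*, a subunit of the cargo receptor for factors V and VIII, was higher (0.83 ± 0.15), and its partner *Lman1* (-0.16 ± 0.14) did not pass. *Furin* (-0.33 ± 0.15) and *Vkorc1*, the vitamin K reductase (-0.47 ± 0.22), did not pass either, but *Vkorc1* was lower without LKO replicate 5 (-0.65 ± 0.19, edgeR adjusted p = 0.0127), as was *Vkorc1l1* (-0.34 ± 0.11, 0.0225). The other higher gene was *Nqo1* (1.73 ± 0.32), and the lower one was *Ggcx*, the carboxylase itself (-0.72 ± 0.15), with 26.7 to 37.4 CPM in WT livers and 16.8 to 24.8 CPM in LKO livers.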

How the data were processed

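The deposited values are counts per gene symbol that the authors made from stranded, paired-end mRNA libraries mapped to mm9 with STAR. The files are named for CPM, but their values are whole numbers with unequal totals, 20872262 to 30450057 per liver. The submitters' processing notes list Trim Galore 0.6.4, STAR 2.7.3a, Cufflinks 2.2.1 and bcl2fastq. The annotation and the strand setting of the counting are not given in the sources used here, so genes overlapping another on either strand are uncertain. Of the 49 genes *C2*, *Cfb*, *F5*, *F8* and *Klkb1* overlap another on the same strand, and *Masp2*, *C2*, *Hc*, *C8a*, *C8g*, *F5*, *F8* and *Serpind1* on the opposite strand. Genes of the other lists do so too, among them *Kng2* and *Vkorc1* on the same strand. No row without a gene name entered a test.

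Counts were analysed in R 4.3.3 with edgeR 4.0.16 (TMM, quasi-likelihood test, Benjamini-Hochberg adjustment over all genes tested, threshold 0.05). Genes needed 1 CPM, before TMM, in at least 5 livers, or in 4 with a liver left out. Groups came from the labels. Without replicate blocks, 5 WT and 5 Ndrg3 LKO livers were compared, as the study did not pair them. Alternatives used limma 3.58.1 and DESeq2 1.42.0. The edgeR step was tested on simulated data. No 2 livers of the same genotype looked like repeats of 1 library (20 pairs, chi-square per degree of freedom 25.7 to 450), and each liver counted as 1 replicate. Levels per kb used the exons of the GENCODE annotation of NCBIM37 (mm9).

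The 49 genes, their roles and usual sources, and the other lists were chosen with earlier results of these data known. Values in every liver are given for the genes with the largest rise and fall in each role, for the fibrinogen chains and for *C3*. From each other list up to 4 genes, those with the highest mean CPM, may be named, and others are said to be chosen after their values were seen. Metabolite and protein measurements were not analysed here, and some results on single genes of the other lists are not reported here.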

Additional observations from a re-analysis of the deposited data

Results flagged for a closer look

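Dixon's test was applied to 100 groups of 5 livers, 1 for each genotype of *Ndrg3* and of each of the 49 genes. Its chance rate of about 1 in 20 holds for independent, normally distributed values. Here every gene was measured in the same livers, and no share over all genes is given. The number of groups found therefore cannot be read as an excess over chance. In 19 of the 100 groups the highest or lowest liver lay far from the others. In 16 of the 19 that liver was LKO replicate 5, which was the highest LKO liver each time. In CPM it had 118.9 for *Masp2*, 65.33 for *C2*, 398.1 for *Hc*, 105.1 for *C8b*, 781.9 for *Cfi* and 734.9 for *C4bp* among the complement genes. Among the coagulation genes it had 2045 for *F2*, 786.3 for *F10*, 72.83 for *Pros1*, 126.7 for *Klkb1*, 2883 for *Kng1* and 509.4 for *Serpind1*. In the fibrinolysis genes it had 868.2 for *Serpinf2* and 245.9 for *Cpb2*, and 4.525 for *Plau* and 1.697 for *Plaur*, which were not tested. The other 3 were WT livers that were the highest of their group. WT replicate 4 had 7.671 CPM of *Cfd*, and WT replicate 1 had 290.6 CPM of *F9* and 3239 CPM of *Serpinc1*. No cause was tested for any of these values.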

How the results depend on the processing

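Of the 39 genes called in all 10 livers, 24 kept their call in all 17 alternatives. The number of genes of the list that were higher moved to 10 with no filter on low counts, which adds *C5ar1*, *Plat*, *Plau* and *Plaur*, and their median log2 fold change moved to -0.566 with library sizes alone. That scaling moved the median of all genes from 0.0314 to 0.559 and the share of higher among all called genes from 52.6% to 85.2% (5821 higher and 1010 lower); relative to all genes the list's median was -1.13, against -1.07 with TMM, and 7 of its genes were higher and 25 lower. Signs turned for *C3* with library sizes alone (0.213) and after quantile normalization (0.483), for *Serpinc1* after quantile normalization (0.0611), and for *F3* with library sizes alone (0.51), with limma on log2(CPM + 1) (0.0141) and with the replicate block (0.0259). Calls were lost with library sizes alone for *Cfb*, *Cfi*, *F9*, *Pros1*, *F5*, *F12*, *F13b* and *Serpinc1*. After quantile normalization they were lost for *Cfb*, *Cfi*, *F2*, *F9*, *Kng1*, *Fga* and *Serpinc1*. Leaving out each liver in turn gave 4703 to 6360 changed genes, 6 to 7 higher and 28 to 35 lower genes of the list, and a median from -1.28 to -0.964 over the 44 genes, with *F3* from -0.157 to 0.0972. The lowest count of changed genes came without LKO replicate 1 and the highest without LKO replicate 5. DESeq2 called 7 genes of the list higher and 34 lower of 43 with an adjusted p. Deviations from the group means correlated at -0.357 to 0.0363 (mean -0.216) between WT and LKO livers of the same number. The LKO mean includes the outlying LKO replicate 5, so these values cannot show whether livers of the same number share a litter or batch. A replicate block in the fit left 4412 changed genes (2215 higher, 2197 lower), of which 5 higher and 33 lower were of the list. With that block *C1qb* (edgeR adjusted p 0.0537) and *Cfi* (0.0547) no longer passed, while *C4bp* did (0.0387). Taking the longest transcript in place of all exons gave 2420 CPM per kb for *Fgg*, 1310 for *Fga* and 1230 for *Kng1* in WT livers. Depth limited what could be said of *Cfd*, *Plat*, *Plau*, *Plaur* and the anaphylatoxin receptors, most of whose levels lay near or under 1 CPM. The cause of these changes was not tested.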

Other observations

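Acute phase proteins, which the liver releases in inflammation, were tested for 16 of 16 genes, of which 9 were lower and 3 higher (median log2 fold change -1.12), or 12 and 3 without LKO replicate 5. Over all genes tested 23% were lower and 25.6% higher, or 27.2% and 28.4% without that liver. *Hp*, haptoglobin, the most abundant, fell by 1.14 on the log2 scale (SE 0.28), and *Saa4* fell by 3.55 (SE 0.41), with 1167 to 1732 CPM in WT livers and 56 to 283 CPM in LKO livers. *Hamp*, hepcidin, the iron hormone, rose by 1.31 (SE 0.30), and *Itih4* was at -0.62 (SE 0.27) and did not pass, but was lower without LKO replicate 5 (-0.76, edgeR adjusted p = 0.0293). *Orm1*, chosen after its values were seen, had 830 to 1461 CPM in WT livers, 1.77 to 34.5 CPM in LKO replicates 1 to 4 and 187 CPM in LKO replicate 5. Of 20 other hepatocyte plasma proteins 19 were tested, of which 7 were lower and 2 higher (median -0.573), with 12 lower and 1 higher without LKO replicate 5, beside the same shares of all genes. Of these *Apoa1* had 738 to 2336 CPM in LKO replicates 1 to 4 and 13990 CPM in LKO replicate 5, against 16760 to 24950 CPM in WT livers.

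Of the markers of other liver cells, 7 of 10 stellate cell and fibroblast genes were higher, led in abundance by *Dcn* (0.97 ± 0.17), and of 5 cholangiocyte genes tested 1 was higher, *Spp1* (1.27 ± 0.39), and 1 lower, *Sox9* (-0.86 ± 0.26), or 2 and 1 without LKO replicate 5, beside 25.6% higher and 23% lower over all genes tested (28.4% and 27.2% without that liver). Neutrophil and lymphocyte markers were all too rare to be tested, with sums of at most 12.8 and 10.7 CPM, both in LKO replicate 5. Of 6 platelet markers only *Itga2b* was tested (0.36 ± 0.22), and it did not pass. The part of any of these cells in the complement and coagulation results was not tested.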
